A study of Mus musculus with 16 samples.

Results

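The genes described here are 9 secreted neurotrophic and growth factors, Bdnf, Gdnf, Ntf3, Fgf1, Fgf2, Vegfa, Igf1, Hbegf and Pdgfa, chosen by name. Of these 9 genes, 8 had a row in the deposited log2 CPM table of 16707 genes, and Ntf3 had none. Primary astrocytes came from the brains of C57BL/6J wild type (WT) pups and Nlrx1-/- pups, were selected with beads against the surface antigen ACSA-2, and were grown for about 10 days in serum-free medium that held HB-EGF protein at 5 ng/mL in all groups. The cells then received vehicle, or lipopolysaccharide (LPS) at 500 ng/mL with interferon gamma (IFNγ) at 10 ng/mL, for 24 h. Each of 4 WT and 4 Nlrx1-/- litters gave 1 vehicle and 1 LPS + IFNγ library, for 16 libraries in 4 groups. The Nlrx1-/- mice carry the deletion in every cell, and which part of Nlrx1 they lack is not given in the sources used here. The methods and labels give the pups' age as P6, and the results text of the study gives a younger age.

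Astrocytes release factors that act on neurons, oligodendrocyte precursors, vessels and other astrocytes. Bdnf and Ntf3 encode neurotrophins, which act through Trk receptor kinases, and Gdnf encodes a ligand of GFRα co-receptors and RET. Fgf1 and Fgf2 encode fibroblast growth factors that leave the cell without a classical signal peptide, Vegfa the main ligand of vascular growth and permeability, Pdgfa a mitogen of oligodendrocyte precursors, Igf1 a survival and growth factor held by IGF binding proteins, and Hbegf a membrane-anchored ligand of the EGF receptor that proteases release. All values are of RNA, and the amount of released protein was not measured.

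Between 27259420 and 43752903 reads per library were assigned to transcripts. Nlrx1, the targeted gene, lay between 4.08 and 4.44 log2 CPM (CPM being a length-scaled count relative to library size) in the 8 WT libraries and between 1.09 and 2.96 in the 8 Nlrx1-/- libraries, so the genotypes did not overlap and its RNA was lowered rather than absent. All 10 astrocyte markers had a row, with a summed level of 5386 to 10848 CPM per library. The oligodendrocyte lineage markers also all had a row and summed to 2323 to 3958.8 CPM, led by Olig1 at a median of 1761 CPM, and Sox10, which defines that lineage, had a median of 67.6 CPM. Of the 10 microglia markers only P2ry12 and Cd68 had a row, with a sum of at most 3.62 CPM, and of the 8 endothelial markers Pecam1, Cdh5, Cldn5, Tek and Emcn had none. Of the 10 neuron markers 9 had a row, and their sum was 49.1 to 63.85 CPM in the vehicle libraries and 81.3 to 118.1 CPM after LPS + IFNγ, without overlap. Tubb3 led the rise of that sum, with log2 fold changes of 2.68 in WT and 2.96 in Nlrx1-/- cells (limma adjusted p = 5.94e-08 and 2.34e-08). Of the 9, 4 fell in WT and 5 in Nlrx1-/- cells, beside 21.9% and 25.5% of all genes. All 8 fibroblast and mural markers had a row, with median sums of 326.3 and 203.5 CPM in WT and 201.2 and 166.1 CPM in Nlrx1-/- cells, with vehicle and after treatment. The part of these markers in the results was not tested. In these cultures fewer cells of a type and less RNA per cell cannot be told apart.

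Vegfa is shown first in sequence, since it rose and its splice forms could be followed. Its transcripts differ by the 2 exons that encode most of the heparin-binding part of the protein. Both lie on the minus strand of chromosome 17 in GRCm39, in the GENCODE transcript Vegfa-207, where exon 6 is at chr17:46333203-46333274 with 72 bases and exon 7 at chr17:46331917-46332048 with 132 bases. The long form holds both exons, the intermediate form lacks exon 6, and the short form lacks both. No part of these sequences is marked by capitals.
Vegfa exon 6: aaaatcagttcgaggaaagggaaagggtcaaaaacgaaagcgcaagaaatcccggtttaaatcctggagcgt
Vegfa exon 7: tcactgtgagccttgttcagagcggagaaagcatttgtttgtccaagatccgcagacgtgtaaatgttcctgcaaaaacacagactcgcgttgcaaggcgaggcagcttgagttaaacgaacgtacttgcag

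Start sites were compared as the 250 bases before each RefSeq start on GRCm38.p6, available for 17 starts of 7 of the genes. The consensus of NF-κB, a factor that LPS activates, was searched on both strands and was found before 3 of the 17 starts, against 7.3% of 32851 windows of all genes. These are 1 start each of Vegfa and Pdgfa, whose RNA rose, and of Bdnf, whose RNA fell, and they are printed with the consensus in capitals. The match began 118 bases before the Vegfa start, 49 before the Pdgfa start and 229 before the Bdnf start. The match was thus present in genes that moved in opposite directions, and it is a description of letters only.
Vegfa, minus strand, chr17:46032378-46032627: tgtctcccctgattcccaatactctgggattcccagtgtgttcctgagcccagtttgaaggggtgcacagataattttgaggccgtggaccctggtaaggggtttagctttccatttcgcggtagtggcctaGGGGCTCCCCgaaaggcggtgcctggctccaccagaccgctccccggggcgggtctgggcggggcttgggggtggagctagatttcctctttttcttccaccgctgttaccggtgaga
Pdgfa, minus strand, chr5:138994945-138995194: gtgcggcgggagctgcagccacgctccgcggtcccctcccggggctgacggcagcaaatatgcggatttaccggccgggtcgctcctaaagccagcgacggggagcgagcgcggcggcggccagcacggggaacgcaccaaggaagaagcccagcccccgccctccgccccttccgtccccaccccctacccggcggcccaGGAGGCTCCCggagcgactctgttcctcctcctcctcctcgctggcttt
Bdnf, plus strand, chr2:109694159-109694408: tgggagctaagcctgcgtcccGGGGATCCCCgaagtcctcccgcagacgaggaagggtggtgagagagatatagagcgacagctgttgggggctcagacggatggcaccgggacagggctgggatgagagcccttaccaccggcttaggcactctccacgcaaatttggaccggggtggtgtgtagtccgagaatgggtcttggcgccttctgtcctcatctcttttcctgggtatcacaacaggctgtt

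The hypoxia response core ACGTG was found before 5 of the 17 starts, of Bdnf, Gdnf, Ntf3 and Vegfa, against 16.6% of all windows. The CRE half-site TGACG was found before 5 starts, of Bdnf, Gdnf, Fgf2, Vegfa and Pdgfa, against 17.8%, and it shared bases with the hypoxia core at 1 start each of Bdnf, Gdnf and Vegfa. For Vegfa both matches lay in another window, chr17:46025164-46025413 on the minus strand, downstream of the printed one. That window precedes a second RefSeq start and lies after the first, so it is inside the gene. The printed Vegfa window held neither element. The pattern TGANTCA, looser than the AP-1 site since it allows any central base, was found before 1 start each of Bdnf and Igf1, against 6.7%. Both matches read TGAATCA, while the usual AP-1 site has C or G at the centre. Further elements were searched as well, and their matches are not given here. The motifs, the length of the windows and the 3 windows printed were chosen after the responses and the matches were known.

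Levels of different genes were compared in TPM, Salmon's measure of transcript abundance, which takes length into account. Hbegf was the most abundant of the 9 in every group, with a mean of 105.5 ± 51.3 TPM (SD, n = 4) in WT vehicle. Vegfa followed at 19.5 ± 3.07 TPM, Fgf1 at 18.2 ± 1.66, Pdgfa at 17.0 ± 3.57 and Fgf2 at 11.4 ± 3.60. The ranges of each neighbouring pair from Vegfa to Fgf2 overlapped in WT vehicle, so the order among them was within the spread of the litters. Bdnf lay below them at 3.96 ± 0.475 TPM without overlap.

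Igf1, Gdnf and Ntf3 were near the limit of detection. In WT vehicle Igf1 had a mean of 0.268 ± 0.102 TPM, Ntf3 0.0925 ± 0.0863 and Gdnf 0.0912 ± 0.0557. The reads behind them were 0 to 78 per library for Igf1, 1 to 26 for Gdnf and 0 to 3 for Ntf3. Bdnf had 60 to 358 reads, Vegfa 703 to 5204 and Hbegf 1962 to 6253. Ntf3 had 0 reads in all 4 Nlrx1-/- LPS + IFNγ libraries, where a count of 0 allows up to 3 reads per library, a limit that covers counting error only.

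After LPS + IFNγ the middle of the order changed. In WT cells Pdgfa, at 18.3 ± 2.27 TPM, lay above Fgf1, at 7.37 ± 1.42, without overlap. In Nlrx1-/- cells Vegfa reached 56.6 ± 24.9 TPM, and its range overlapped that of Hbegf, which had a mean of 102.1 ± 36.4 TPM. Bdnf held rank 6 in all 4 groups.

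**Figure D1:**
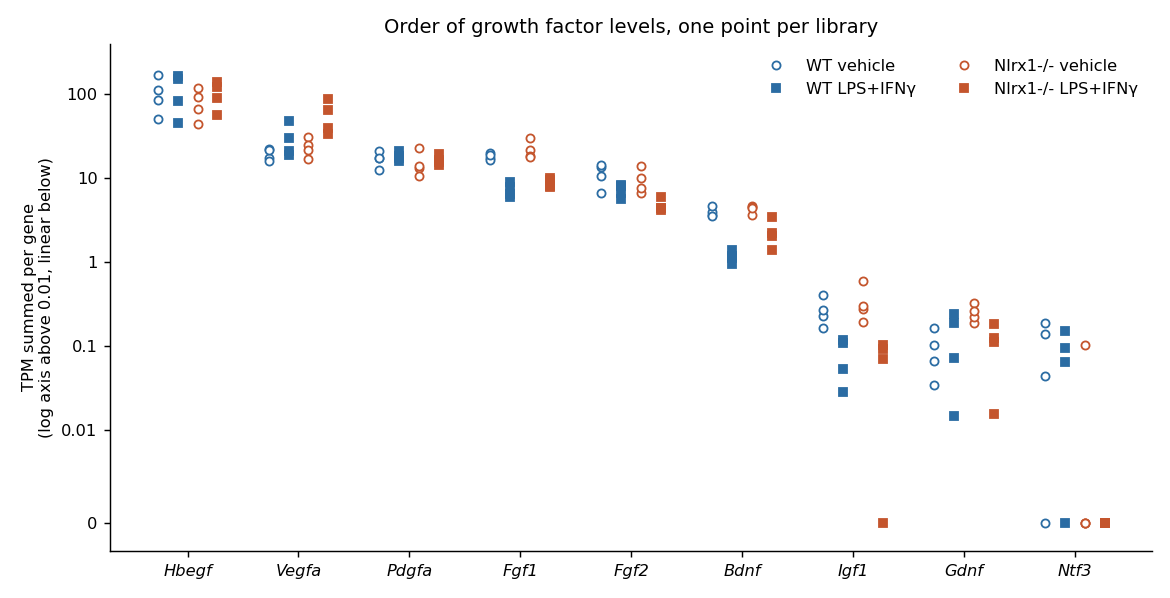
TPM summed per gene for the 9 growth factors (vertical axis, logarithmic above 0.01 TPM and linear below), with 1 point per library, circles for vehicle and squares for LPS + IFNγ, blue for WT and orange for Nlrx1-/-. Hbegf lies highest, Vegfa to Fgf2 form an overlapping middle, and Igf1, Gdnf and Ntf3 lie below 1 TPM.

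Treatment was compared within litters. In WT cells Bdnf and Fgf1 fell, Vegfa and Pdgfa rose, and the other 4 tested genes did not pass the test, so 4 of 8 were called against 46.7% of all genes (limma on log2 CPM with litter terms, Benjamini-Hochberg adjustment over 16707 genes, threshold 0.05). In Nlrx1-/- cells Bdnf, Fgf1, Fgf2 and Igf1 fell, Vegfa, Pdgfa and Hbegf rose, and Gdnf did not pass, so 7 of 8 were called against 52.1% of all genes. The share called in WT cells was near the share of all genes. By direction, 24.9% of all genes rose and 21.9% fell in WT cells, and 26.6% rose and 25.5% fell in Nlrx1-/- cells. The median log2 fold change of the 8 genes was -0.07 in WT and -0.80 in Nlrx1-/- cells, beside -0.02 over all genes in each genotype. A median of 8 genes that fall and rise can move with 1 gene. Gdnf, which passed in neither genotype, had 0.35 in WT and -1.07 in Nlrx1-/- cells. Over all genes, 53.2% of the calls in WT and 51.1% in Nlrx1-/- cells were higher, and these shares became 40.6% and 41.4% when every library was shifted to a common median.

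Bdnf, the ligand of TrkB, fell in all 8 litters. Its level in WT vehicle was 2.57, 2.70, 2.91 and 2.57 log2 CPM in litters 1 to 4, and 1.14, 0.92, 1.46 and 1.11 after LPS + IFNγ. In Nlrx1-/- cells it was 2.60, 3.03, 2.93 and 2.93 with vehicle and 1.42, 2.05, 2.06 and 2.75 after LPS + IFNγ. The treated and vehicle groups did not overlap in WT cells, whereas in Nlrx1-/- cells the treated library of litter 4 lay within the vehicle range. The log2 fold change was -1.53 (SE 0.17, limma adjusted p = 2.11e-05) in WT cells, which is 2.89-fold lower. In Nlrx1-/- cells it was -0.80 (SE 0.17, limma adjusted p = 0.00227), which is 1.74-fold lower. Of Bdnf, 94.6% of the TPM came on average from a single RefSeq transcript of 4009 bases, and its exons share 13.5% of their bases with an antisense RNA, Gm45346.

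Fgf1, a ligand of all FGF receptors, fell in all 8 litters. Its level in WT vehicle was 4.94, 5.18, 4.87 and 5.10 log2 CPM in litters 1 to 4 and 3.56, 4.28, 3.85 and 4.01 after treatment. The Nlrx1-/- levels were 5.31, 5.90, 5.11 and 5.31 with vehicle, and 4.29, 4.47, 4.06 and 4.07 after treatment. Every treated library lay below every vehicle library. The fall was -1.09 log2 units in WT (SE 0.09, limma adjusted p = 1.90e-06) and -1.19 in Nlrx1-/- cells (SE 0.09, limma adjusted p = 8.20e-07).

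In log2 CPM Fgf2, which shares those receptors, fell in all 4 Nlrx1-/- litters and in 3 of 4 WT litters. The levels were 3.49, 4.21, 4.54 and 4.63 log2 CPM in WT vehicle and 3.69, 4.05, 3.50 and 4.00 after treatment, and these groups overlapped. The Nlrx1-/- levels were 4.14, 3.64, 4.61 and 3.77 with vehicle and 3.11, 3.21, 3.54 and 3.10 after treatment, with no overlap. The log2 fold change was -0.80 in Nlrx1-/- cells (SE 0.17, limma adjusted p = 0.00219) and -0.41 in WT cells (SE 0.17, limma adjusted p = 0.0749). The WT value passed the test without WT litter 1 (-0.61, limma adjusted p = 0.0167), and also with libraries at a common median (-0.49, limma adjusted p = 0.0323).

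The Fgf2 level depends on how reads were divided between its transcripts of 6033 and 695 bases, since the deposited CPM are scaled by length. In WT litter 1, where log2 CPM rose, the expected reads of Fgf2 fell from 429.8 to 310.4. The median of these reads, not scaled by length or depth, was 728 in WT vehicle and 383 after treatment. In Nlrx1-/- cells it was 528 and 334, so the weaker fall in WT cells was not seen in reads. The long transcript had 279.0 to 1168.8 expected reads per library and the short one only 5.3 to 58.8, so the shares are uncertain. The short transcript held between 16.1% and 56.0% of the Fgf2 TPM per library. Its share was 31.05% ± 7.77 in WT vehicle and 45.3% ± 13.4 after treatment, higher in 3 of 4 litters, and 46.04% ± 5.61 and 27.9% ± 8.74 in Nlrx1-/- cells, lower in 4 of 4 (SD, n = 4). The Nlrx1-/- groups did not overlap, at 38.2% to 50.8% with vehicle and 16.1% to 37.1% after it. Within a genotype the exact sign-flip permutation p was 0.250 in WT and 0.125 in Nlrx1-/- cells, two-sided, where 4 litters allow no p below 0.125. The changes of 14.2 points in WT and -18.1 points in Nlrx1-/- cells, compared after these values had been seen, had an exact permutation p of 0.0286, the smallest that 4 against 4 litters allow, and an adjusted p of 0.143 over 5 shares. Over all 8 litters, where these opposite changes cancel, the mean difference was -1.94 points (SD 20.1, exact sign-flip permutation p = 0.805). In addition, 45.0% of the exonic bases of Fgf2 are shared with Nudt6 on the other strand, and the library kept no strand. Nudt6 itself had log2 fold changes of 0.51 (limma adjusted p = 0.181) in WT and 0.49 (limma adjusted p = 0.186) in Nlrx1-/- cells, opposite in sign to Fgf2.

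**Figure D2:**
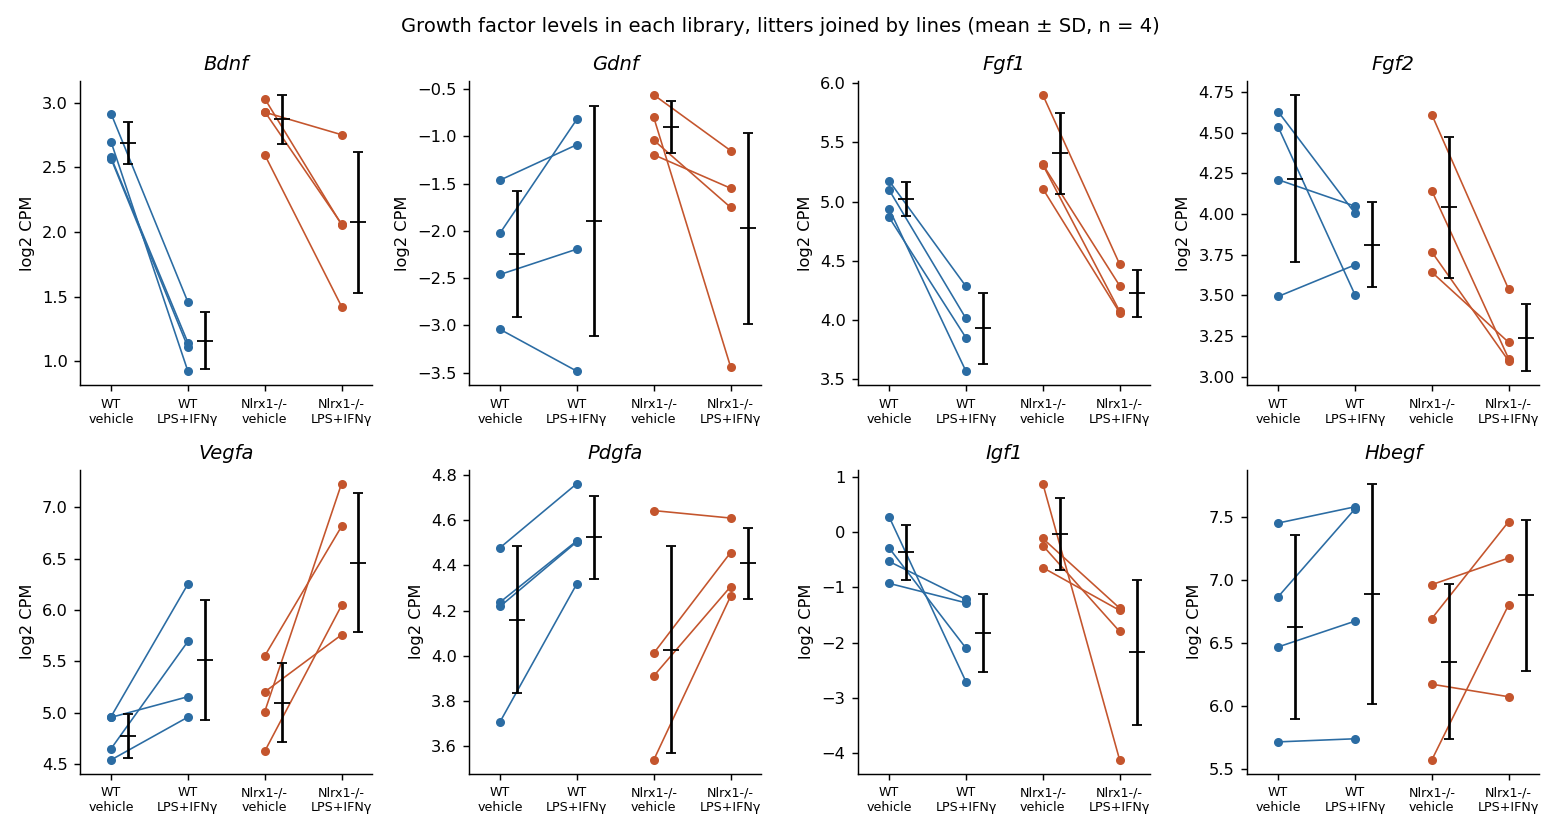
Log2 CPM of the 8 genes with a row (vertical axes, a separate scale for each gene) in the 4 groups, with 1 point per library, lines joining the vehicle and LPS + IFNγ libraries of a litter, and black bars for mean ± SD of 4 litters. The lines of Bdnf and Fgf1 go down in all 8 litters and those of Vegfa go up in all 8.

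Vegfa rose in log2 CPM in all 8 litters. Its level was 4.96, 4.65, 4.95 and 4.54 log2 CPM in WT vehicle and 6.25, 5.70, 5.16 and 4.96 after treatment, and the treated library of litter 4 lay just below the highest vehicle library. Nlrx1-/- libraries had 4.62, 5.55, 5.20 and 5.01 with vehicle and 6.05, 6.82, 5.76 and 7.23 after treatment, without overlap. Treatment changed it by 0.74 log2 units in WT (SE 0.22, limma adjusted p = 0.0164) and 1.37 in Nlrx1-/- cells (SE 0.22, limma adjusted p = 0.000284), or 1.67-fold and 2.58-fold higher. The WT call was lost without WT litter 1 (0.55, limma adjusted p = 0.0959), without WT litter 2 (0.64, limma adjusted p = 0.0826) and in a fit without litter terms (limma adjusted p = 0.0729).

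The exons printed above separated 3 Vegfa forms. The intermediate form held most of the Vegfa TPM, in WT 64.9% ± 7.81 before and 70.3% ± 1.27 after treatment, and in Nlrx1-/- cells 72.0% ± 2.37 before and 68.0% ± 3.95 after it (SD, n = 4). The short form held 32.4% ± 8.42 and 26.2% ± 1.08 in WT and 24.1% ± 3.84 and 27.6% ± 4.78 in Nlrx1-/- cells, in the same order, and the long form between 0.988% and 7.86% per library. With treatment the intermediate share changed by 5.41 points in WT (SD 6.73, higher in 3 of 4 litters) and by -4.02 points in Nlrx1-/- cells (SD 4.75, lower in 3 of 4). The exact sign-flip permutation p was 0.250 in each genotype, where none can be below 0.125, and the difference between the genotypes' changes had an exact permutation p of 0.0857 and an adjusted p of 0.190 over 5 shares. Over all 8 litters these changes largely cancel (0.70 points, SD 7.38, exact p = 0.797).

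The Vegfa transcripts also fall into a longer and a shorter series that differ by a constant number of bases. The longer series held 58.1% to 66.9% of the Vegfa TPM in WT vehicle and 71.6% to 77.9% in WT LPS + IFNγ, with no overlap. It held 63.0% to 70.8% in Nlrx1-/- vehicle and 66.9% to 81.4% after treatment, which overlapped. Its share was higher in 7 of 8 litters, by 9.08 points on average (SD 6.24), with an exact sign-flip permutation p of 0.0156 and an adjusted p of 0.0781 over 5 shares tested, which did not pass 0.05. This share was added to the tests after its values had been seen.

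**Figure D3:**
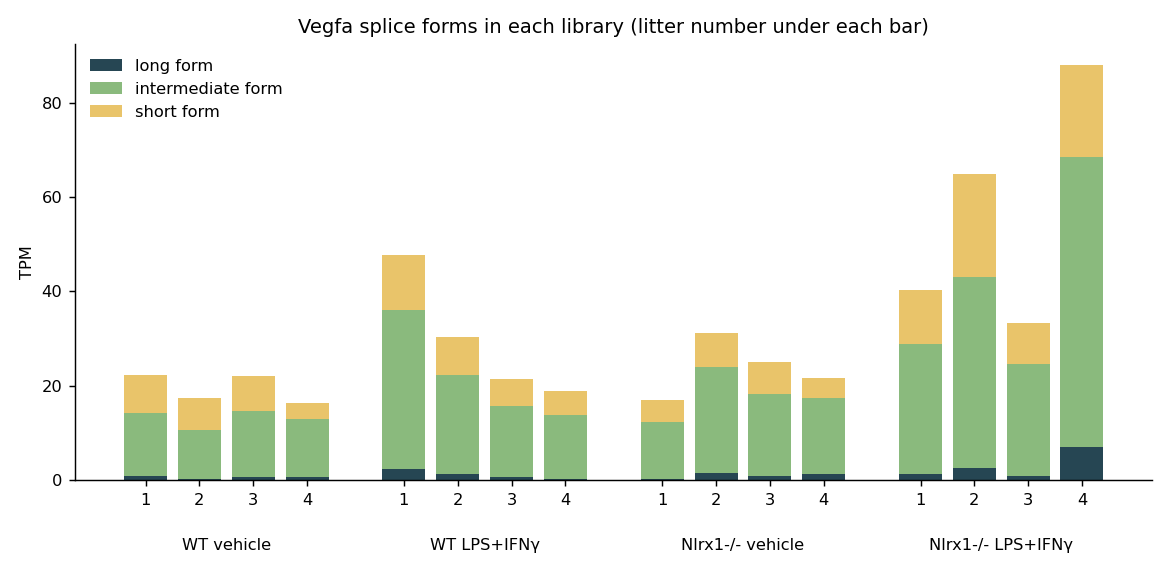
Vegfa TPM (vertical axis) in each of the 16 libraries as stacked bars of the long, intermediate and short splice forms, with litter numbers under the bars. The bars are taller after LPS + IFNγ in 7 of 8 litters and slightly lower in WT litter 3 (22.01 and 21.33 TPM), and the intermediate form is the largest part in every library, from 59.4% to 76.3% in WT vehicle.

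Pdgfa, the ligand of PDGFRα, showed a small rise. Its level was 3.71, 4.22, 4.48 and 4.24 log2 CPM in WT vehicle and 4.32, 4.51, 4.76 and 4.51 after treatment, higher in all 4 litters. Nlrx1-/- libraries had 3.91, 4.01, 4.64 and 3.54 with vehicle and 4.31, 4.46, 4.61 and 4.26 after treatment, higher in 3 of 4. The groups overlapped in both genotypes. Its log2 fold change was 0.36 in WT (SE 0.11, limma adjusted p = 0.0189) and 0.38 in Nlrx1-/- cells (SE 0.11, limma adjusted p = 0.0129). Without litter terms neither value passed (limma adjusted p = 0.163 and 0.129), the WT call was lost without WT litter 1 (0.28, adjusted p = 0.101), and the Nlrx1-/- call without Nlrx1-/- litter 4 (0.27, adjusted p = 0.0739). With libraries at a common median the WT value was 0.28 (limma adjusted p = 0.0525), and 37.7% of the exonic bases are shared with an antisense RNA, 6330403L08Rik.

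Hbegf differed widely between litters, with an SD of 0.73 log2 units in WT vehicle, and its rise passed the test in Nlrx1-/- but not in WT cells. Its level was 7.45, 6.86, 6.47 and 5.71 log2 CPM in WT vehicle and 7.58, 7.56, 6.67 and 5.74 after treatment. Among Nlrx1-/- libraries it was 6.96, 6.69, 6.17 and 5.57 with vehicle and 7.17, 7.46, 6.07 and 6.80 after treatment, and all groups overlapped. Its log2 fold change was 0.53 in Nlrx1-/- cells (SE 0.17, limma adjusted p = 0.0222) and 0.26 in WT cells (SE 0.17, limma adjusted p = 0.231). The difference between these responses did not pass (0.26, SE 0.24, limma adjusted p = 0.624). The Nlrx1-/- call was lost without Nlrx1-/- litter 2 (0.45, limma adjusted p = 0.0861), without litter 4 (0.29, adjusted p = 0.132) and without litter terms (adjusted p = 0.352). The medium of every group held the protein that this gene encodes.

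Igf1 fell in all 8 litters from a low level. It lay between -0.93 and 0.28 log2 CPM in WT vehicle and between -2.71 and -1.22 after treatment, and between -0.64 and 0.88 in Nlrx1-/- vehicle and between -4.13 and -1.38 after treatment, without overlap in either genotype. The log2 fold change was -2.15 in Nlrx1-/- cells (SE 0.65, limma adjusted p = 0.0157) and -1.46 in WT cells (SE 0.65, limma adjusted p = 0.0868). The lowest value comes from Nlrx1-/- litter 4, which had 0 reads after treatment, so that its log2 CPM is set by the prior count. Without that litter the Nlrx1-/- value was -1.20 (limma adjusted p = 0.0826), the WT value passed (adjusted p = 0.0188), and edgeR on summed counts gave -2.18 in Nlrx1-/- cells (adjusted p = 0.0592). The deposited table kept only genes that passed a filter on low counts, and Igf1 reads were highest with vehicle. They were 17 to 36 per library in WT and 22 to 78 in Nlrx1-/- vehicle, and 3 to 13 and 0 to 12 after treatment. The part of the filter in the fall was not tested.

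Gdnf, a survival factor of dopaminergic and motor neurons, passed in neither genotype. In WT cells it lay between -3.04 and -1.46 log2 CPM with vehicle and between -3.49 and -0.82 after treatment. Among Nlrx1-/- libraries it lay between -1.19 and -0.56 with vehicle and between -3.44 and -1.15 after treatment. The log2 fold change was 0.35 in WT (SE 0.49, limma adjusted p = 0.582) and -1.07 in Nlrx1-/- cells (SE 0.49, limma adjusted p = 0.0827). Each of these values rests on 1 to 26 reads, and the groups overlapped in both genotypes. Reads were highest in Nlrx1-/- vehicle, at 16 to 26 per library, and the deposited table kept only genes that passed a filter on low counts. The part of that filter in the Nlrx1-/- value was not tested.

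**Figure D4:**
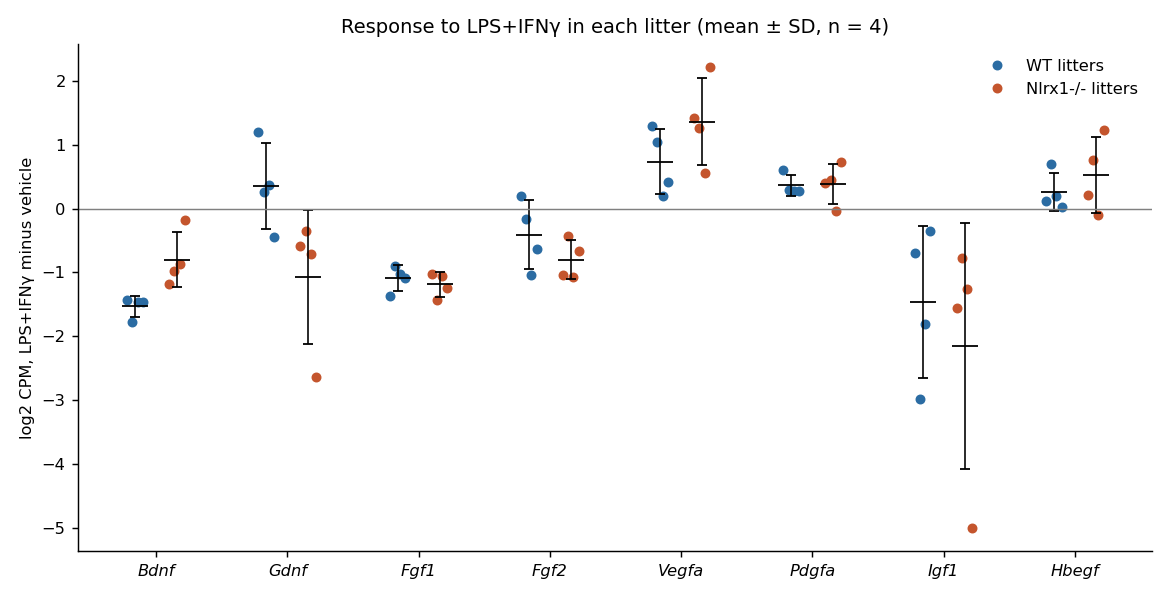
Response of the 8 genes in each litter (vertical axis, log2 CPM with LPS + IFNγ minus vehicle), blue for WT and orange for Nlrx1-/- litters, with black bars for mean ± SD of 4 litters. Bdnf responses lie between -1.77 and -1.43 in WT and between -1.17 and -0.17 in Nlrx1-/- litters, and Fgf1 responses of both genotypes overlap.

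The next question was whether the response depended on Nlrx1. No growth factor passed the test of the difference between responses, and 0% of all genes did (limma, adjusted p under 0.05). At an unadjusted p under 0.05 limma gave 1 of the 8 genes, Bdnf, beside 16.7% of all genes. The Bdnf response was 0.73 log2 units less negative in Nlrx1-/- cells (SE 0.25, limma adjusted p = 0.191), and the 4 WT responses lay below the 4 Nlrx1-/- responses. Neither edgeR nor DESeq2 called any of the 8, but DESeq2 gave Gdnf and Igf1 no adjusted p and so could not call them. The Vegfa response was 0.63 log2 units larger in Nlrx1-/- cells (SE 0.31, limma adjusted p = 0.340), and the difference for Gdnf was -1.43 (SE 0.69, limma adjusted p = 0.322).

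Between genotypes in vehicle no growth factor passed, beside 0.00599% of all genes, which is Nlrx1 alone (limma, adjusted p under 0.05). At an unadjusted p under 0.05 limma gave 2 of the 8 genes, beside 21.1% of all genes. These were Fgf1, higher in Nlrx1-/- cells by 0.39 (SE 0.17, limma adjusted p = 0.200), and Gdnf, higher by 1.35 (SE 0.59, limma adjusted p = 0.210). Neither edgeR nor DESeq2 called any of the 8, but DESeq2 gave Gdnf no adjusted p and so could not call it. Gdnf did not overlap between the vehicle groups, with 2 to 12 reads per WT library and 16 to 26 per Nlrx1-/- library. The deposited table kept only genes that passed a filter on low counts, and Gdnf reads were highest in Nlrx1-/- vehicle. Treated WT and Nlrx1-/- libraries had at most 14 and 15 reads. The lack of overlap is thus no independent support, and the part of the filter in it was not tested.

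After LPS + IFNγ, Bdnf was higher in Nlrx1-/- than in WT cells and was the only growth factor called, beside 8.8% of all genes (4.4% higher and 4.41% lower). The log2 difference was 0.91 (SE 0.22, limma adjusted p = 0.0349), or 1.88-fold, and the highest WT library, at 1.46 log2 CPM, lay just above the lowest Nlrx1-/- library, at 1.42. The alternatives other than leaving out a litter, edgeR and DESeq2 among them, kept the call, with adjusted p between 0.00258 and 0.0403. The call was lost without WT litter 2, 3 or 4, or without Nlrx1-/- litter 2 or 4, with log2 differences of 0.84, 1.01, 0.90, 0.92 and 0.69 and limma adjusted p of 0.112, 0.122, 0.132, 0.0722 and 0.129. In each of these fits 0 or 1 of all genes was called higher and 1 or 2 lower, against 735 and 736 with all litters. The loss was thus common to the whole comparison and not particular to Bdnf.

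Vegfa had a log2 difference of 0.95 in treated Nlrx1-/- cells (SE 0.31, limma adjusted p = 0.0613), with overlapping groups. DESeq2 called it (0.97, adjusted p = 0.0169), as did limma without Nlrx1-/- litter 3 (1.18, adjusted p = 0.0147) and without WT litter 1 (1.19, adjusted p = 0.0308). Fgf2 had a log2 difference of -0.57 (SE 0.24, limma adjusted p = 0.124), which passed without Nlrx1-/- litter 3 (limma adjusted p = 0.0463). The other 5 differences lay between -0.35 for Igf1 and 0.30 for Fgf1. The comparisons with vehicle and between genotypes share libraries, so a low WT LPS + IFNγ value of Bdnf enters both.

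The receptors were described from a list of 29 genes, of which 26 had a row. In WT cells 3 rose and 10 fell, and in Nlrx1-/- cells 7 rose and 12 fell, with median log2 fold changes of -0.14 and -0.10. These 13 and 19 called of 26 stand beside 46.7% and 52.1% of all genes. Ntrk2, which encodes TrkB, the receptor of Bdnf, had a mean of 9.88 log2 CPM and fell as its ligand did, with a log2 fold change of -0.75 in WT (SE 0.08, limma adjusted p = 1.25e-05) and -1.13 in Nlrx1-/- cells (SE 0.08, limma adjusted p = 3.41e-07). Its groups did not overlap within a genotype, with 10.31 to 10.82 log2 CPM in WT vehicle and 9.43 to 10.14 after treatment. Ntrk3, the receptor of Ntf3, fell by 0.64 in Nlrx1-/- cells (limma adjusted p = 0.000221) and had a value of -0.24 in WT cells (limma adjusted p = 0.0707). Gfra1, the co-receptor of Gdnf, fell in both (-0.39 in WT and -0.36 in Nlrx1-/- cells) (limma adjusted p = 0.0187 and 0.0260), and Ret had no row.

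Among FGF receptors, Fgfr3 fell in both genotypes (-0.66 in WT and -1.36 in Nlrx1-/- cells, limma adjusted p = 0.000724 and 1.88e-06), as did Fgfr2 (-0.27 and -0.36, adjusted p = 0.00742 and 0.00114). Fgfr1 had values of -0.08 and -0.06 and passed in neither genotype (limma adjusted p = 0.329 and 0.467). Igf1r, the IGF receptor, and Egfr, the receptor of Hbegf, also passed in neither, with log2 fold changes between -0.09 and 0.08. Erbb4, another receptor of Hbegf, fell by 0.14 in Nlrx1-/- cells (limma adjusted p = 0.0398).

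The receptors of Vegfa moved in different directions. Kdr and Flt1 are also endothelial markers, and of the 8 markers of that list 5 had no row. Nrp1, a co-receptor, rose by 1.28 in WT and 0.95 in Nlrx1-/- cells (limma adjusted p = 1.12e-08 and 1.52e-07). Kdr, the main signalling receptor, fell (-2.48 and -1.68, limma adjusted p = 8.75e-06 and 0.000165). Its mean was 2.47 log2 CPM in WT and 1.32 in Nlrx1-/- vehicle, and -0.02 and -0.36 after treatment. Flt1, which binds Vegfa as a decoy, rose by 1.53 in Nlrx1-/- cells (limma adjusted p = 0.00206) and had a value of 0.52 in WT cells (adjusted p = 0.212). Flt4, the receptor of Vegfc, rose by 1.69 and 1.58 (limma adjusted p = 0.000673 and 0.000911), and Nrp2, another co-receptor, fell by 1.27 in WT cells (adjusted p = 3.12e-05). Pdgfra, the receptor of Pdgfa and a marker of oligodendrocyte precursors, fell (-1.34 and -1.56, limma adjusted p = 2.11e-06 and 4.68e-07). Of the 10 oligodendrocyte lineage markers, Pdgfra among them, 6 fell in WT and 8 in Nlrx1-/- cells, beside 21.9% and 25.5% of all genes. Their part in the Pdgfra result was not tested.

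**Figure D5:**
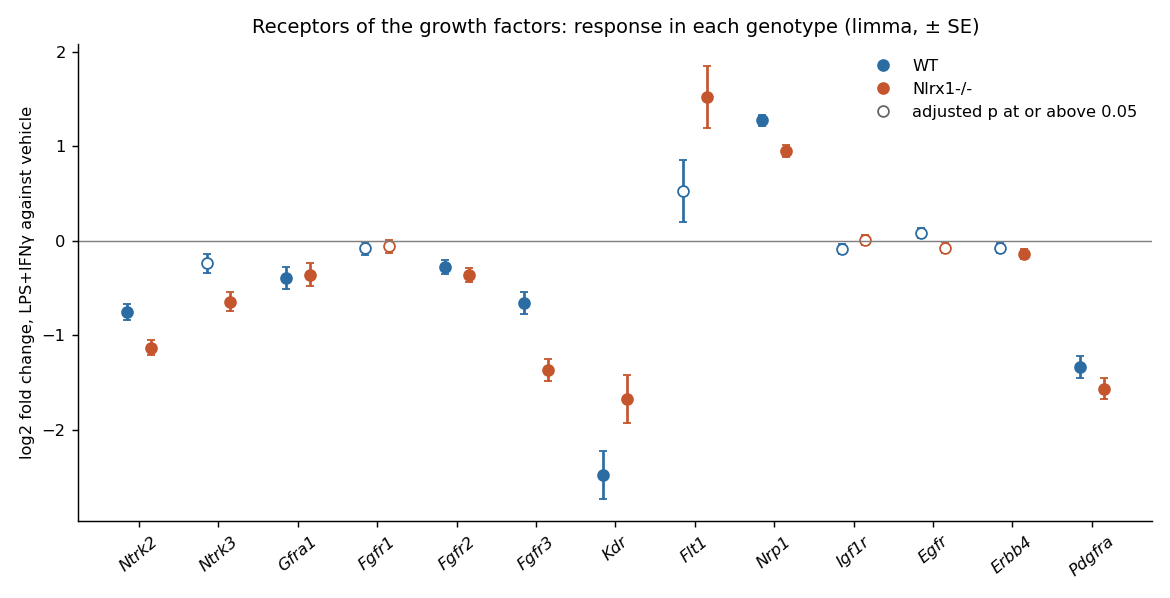
Log2 fold change with LPS + IFNγ (vertical axis, limma, bars for ± SE) of 13 named receptors in WT (blue) and Nlrx1-/- cells (orange), filled where the adjusted p was under 0.05. Ntrk2, Fgfr3, Kdr and Pdgfra lie below 0 and Nrp1 above 0 in both genotypes, while Fgfr1, Igf1r and Egfr lie within 0.1 of 0.

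Between genotypes after LPS + IFNγ, 2 receptors were higher and 5 lower in Nlrx1-/- cells, beside 8.8% of all genes called. All 7 calls were lost without WT litter 2, 3 or 4 and without Nlrx1-/- litter 2 or 4, and those of Gfra2, Nrp1 and Ncam1 also without Nlrx1-/- litter 1, with limma adjusted p of at most 0.156. Without WT litter 2, 3 or 4 or Nlrx1-/- litter 2 or 4, nearly all calls of this comparison were lost, as given for Bdnf. The same holds for the calls of this comparison named further below. Ntrk2 was lower (log2 difference -0.86, SE 0.20, limma adjusted p = 0.0349), the opposite direction to its ligand Bdnf. Pdgfra (-0.83, adjusted p = 0.0349), Fgfr3 (-0.87, adjusted p = 0.0369) and Nrp1 (-0.55, adjusted p = 0.0470) were also lower by limma, and Gfra2, a co-receptor of neurturin, was higher (1.45, adjusted p = 0.0364), as was the insulin receptor Insr (0.55, adjusted p = 0.0366). In the same comparison 5 of 10 astrocyte markers and 2 of 10 oligodendrocyte lineage markers were lower, with median log2 differences of -0.79 and -0.83, and their part in the receptor differences was not tested.

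Other ligands of the same families were taken from a list of 33 genes, of which 25 had a row. In WT cells 7 rose and 6 fell, and in Nlrx1-/- cells 6 rose and 7 fell, so 13 of 25 were called in each genotype, near the 46.7% and 52.1% of all genes. Pdgfc rose by 1.83 in WT cells (limma adjusted p = 3.89e-08), and Vegfc, a lymphatic growth factor, by 1.54 in WT and 1.57 in Nlrx1-/- cells (adjusted p = 0.000160 and 0.000114). The EGF family ligands Ereg and Nrg1 rose by 1.98 and 1.63 in Nlrx1-/- cells (limma adjusted p = 0.000744 and 1.91e-05), while Tgfa fell by 0.89 (adjusted p = 7.98e-06). Pdgfd fell (-1.23 in WT and -1.78 in Nlrx1-/- cells, limma adjusted p = 0.000288 and 1.31e-05). Fgf13, an FGF homologue that stays in the cell, fell (-0.50 and -1.01, adjusted p = 0.0104 and 6.96e-05). In treated cells Areg was higher in Nlrx1-/- than in WT cells (2.49, limma adjusted p = 0.0379), and Fgf11 lower (-0.50, adjusted p = 0.0411). Areg was a low gene, with a mean of -2.35 log2 CPM over all libraries. Both calls were lost without WT litter 2, 3 or 4 and without Nlrx1-/- litter 2 or 4 (limma adjusted p of at most 0.149).

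Of 28 binding proteins and processing enzymes, 27 had a row, and 11 rose and 8 fell in WT cells and 9 rose and 10 fell in Nlrx1-/- cells. These 19 of 27 in each genotype stand beside 46.7% and 52.1% of all genes, and without litter terms 12 were called in WT cells. The IGF binding proteins moved apart. Igfbp3 rose by 1.15 in WT and 1.57 in Nlrx1-/- cells (limma adjusted p = 8.93e-05 and 6.02e-06), while Igfbp4 fell (-1.26 and -1.61, adjusted p = 1.64e-05 and 1.78e-06), as did Igfbp5 (-2.08 and -1.40, adjusted p = 7.03e-08 and 2.04e-06). Pappa, a protease that cleaves IGF binding proteins, rose by 1.80 and 2.07 (limma adjusted p = 0.000358 and 0.000101). Fgfbp3, which carries FGFs out of the matrix, rose by 2.41 and 2.13 (limma adjusted p = 1.88e-08 and 5.27e-08). Pcsk6, a proprotein convertase, fell by 0.89 in WT cells (limma adjusted p = 3.61e-05), and Syt1, a calcium sensor of vesicle release, by 1.36 in Nlrx1-/- cells (adjusted p = 0.00895). In treated cells Igfbp3, Adam12 and Igfbp2 were higher in Nlrx1-/- than in WT cells (1.53, 1.31 and 0.60, limma adjusted p = 0.0450, 0.0469 and 0.0490), and S100a13, which takes part in Fgf1 release, was lower (-0.78, adjusted p = 0.0402). These 4 calls were lost without WT litter 2, 3 or 4 and without Nlrx1-/- litter 1, 2 or 4 (limma adjusted p of at most 0.160).

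All 25 growth factor response and feedback genes had a row, and 14 rose and 3 fell in each genotype, beside 46.7% and 52.1% of all genes called. Without litter terms 4 were called in WT and 10 in Nlrx1-/- cells, and 10 to 19 were called in WT cells with 1 litter left out. Their median log2 fold change was 0.27 in WT and 0.57 in Nlrx1-/- cells. The immediate early genes Egr2 and Arc rose by 1.53 and 1.45 in WT cells (limma adjusted p = 0.000180 and 7.57e-05) and by 2.11 and 1.53 in Nlrx1-/- cells (adjusted p = 1.12e-05 and 4.06e-05), and Ier3, which also responds to NF-κB, by 1.54 and 2.27 (adjusted p = 0.000476 and 1.88e-05). Fos fell by 1.26 in WT cells (limma adjusted p = 0.000783). Spry3, of the Sprouty family of feedback inhibitors, fell by 1.01 in Nlrx1-/- cells (limma adjusted p = 0.0172). Etv5, an FGF-responsive transcription factor, fell slightly in both (-0.18 and -0.16, limma adjusted p = 0.0290 and 0.0357), as did Lrig1, an inhibitor of receptor kinases, in WT cells (-0.20, adjusted p = 0.0149). Il17rd, an inhibitor of FGF signalling, fell by 0.59 in Nlrx1-/- cells (limma adjusted p = 0.00195) and was lower there than in WT cells after treatment (-0.57, adjusted p = 0.0349), a call lost without WT litter 2, 3 or 4 and without Nlrx1-/- litter 2 or 4.

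Of 16 hypoxia-inducible factors and targets, a group to which Vegfa belongs, 14 had a row, and 5 rose and 2 fell in WT and 8 rose and 2 fell in Nlrx1-/- cells. These 7 and 10 of 14 stand beside 46.7% and 52.1% of all genes, and without litter terms 6 were called in Nlrx1-/- cells. Egln3, an oxygen sensor, rose by 2.38 and 2.61 (limma adjusted p = 6.05e-09 and 2.33e-09) and Bnip3, a mitophagy receptor, by 0.67 and 0.72 (adjusted p = 3.46e-05 and 1.60e-05). P4ha1, a collagen prolyl hydroxylase, rose by 0.48 in WT cells (limma adjusted p = 0.00165) and Adm, the vasodilator adrenomedullin, by 1.06 in Nlrx1-/- cells (adjusted p = 0.000168). Ndrg1 fell (-1.19 and -0.46, limma adjusted p = 8.77e-06 and 0.00720), as did Epas1, which encodes HIF-2α (-0.25 and -0.32, adjusted p = 0.00945 and 0.00183). Members of the list thus moved in both directions.

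The gene most alike each growth factor was taken as the one of 13703 genes with the smallest root mean square difference in log2 CPM over the 16 libraries, after centring. Vegfa was closest to Mars1, a methionyl-tRNA synthetase, at 0.19, and next to Cars, a cysteinyl-tRNA synthetase, at 0.20, beside a root mean square of 0.77 for Vegfa itself. Bdnf was closest to the integrin gene Itga6 (0.28), Fgf1 to Ldlrad3 (0.24), Fgf2 to the clock gene Nr1d1 (0.21) and Pdgfa to Scrn1 (0.17). Hbegf was closest to Srf (0.30), which encodes a transcription factor of immediate early genes. Gdnf (0.59, Prdm8) and Igf1 (0.57, Asic4) had no close match relative to the others.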

How the data were processed

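RNA was measured in 16 libraries of cultured mouse astrocytes by poly-A RNA-seq without strand information. The authors quantified transcripts with Salmon 1.7.0 against the GRCm39 RefSeq transcriptome and deposited, per transcript, the expected count (not normalized) and TPM. The authors also deposited a CPM table and its log2 values (log2 CPM), made from length-scaled tximport counts after a filter on low counts and TMM scaling in limma-voom 3.58.1, so a level can move with the division of reads between transcripts.

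Groups and replicate numbers came from the labels, which do not name litters. A replicate number within a genotype was taken as a litter, after the study's methods. The main test was limma 3.58.1 (R 4.3.3, trend) on log2 CPM rather than a count test, because the genes were chosen from that table and sums of expected counts depend on which transcript accessions could be paired with a symbol. For 5 of the 8 genes the sums matched the deposited values to within 0.001 log2 units, for Pdgfa they were 0.239 to 0.340 lower, for Fgf1 they differed unevenly between libraries, by -0.227 to 0.003, and for Fgf2 by -0.036 to 0.007. Responses used litter terms within genotype, as the study did, and genotypes were compared without them, since each litter has 1 genotype. Samples with the same number in 1 genotype were thus taken to come from 1 litter, and their deviations from the group means correlated with a Pearson r of 0.073 to 0.355. Limma p-values of the responses rest on the spread of responses between litters, pooled over both genotypes. A gene thus has 1 SE for both genotypes, such as 0.17 for Bdnf. The SD of the Bdnf litter responses was 0.163 in WT and 0.43 in Nlrx1-/- cells. The genotype comparisons treated all libraries as independent, although each litter gave a vehicle and a treated library. The estimated correlation within litters was 0.364. TPM and expected counts were summed per gene. Shares of transcripts were tested with exact sign-flip permutations over 8 litters, two-sided, where no p can be below 0.0078, and, after a first look, also within each genotype and between genotypes. Alternatives used edgeR 4.0.16 and DESeq2 1.42.0 on rounded summed counts with length offsets. The main limma fits were tested on simulated data, and the alternatives and permutations were not. The simulated litters differed less than those of some genes here, such as Hbegf. The simulated case without any changed gene was examined only for the difference between responses, not for the genotype comparisons. Plots used matplotlib.

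The genes, all lists and the motifs were chosen with earlier results of these data known. Named genes are the 9 factors, the listed receptors, and per list up to 3 called genes in each direction (for the responses with a mean of at least 1 CPM). Gene positions and overlaps are from GENCODE M39. Start sequences are from RefSeq on GRCm38.p6 and were shown for 7 of the 9 genes, with Fgf1 and Hbegf not analysed here. A table of proteins was not used here.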

Additional observations from a re-analysis of the deposited data

Results flagged for a closer look

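Of 48 sets of 4 values (8 genes in 4 groups, and 8 genes' responses in 2 genotypes), 4 held a value far from the other 3 by Dixon's criterion at its 95% level, and chance alone gives about 1 set in 20. The Bdnf response of WT litter 2 was -1.77, against -1.46 to -1.43 in the other WT litters, with a gap of 0.925 of the range. The Pdgfa response of WT litter 1 was 0.61, the highest of the WT litters, with a gap of 0.957. The Gdnf response of Nlrx1-/- litter 4 was -2.64, from few reads, with a gap of 0.844. The Igf1 level of the treated library of Nlrx1-/- litter 4 was -4.13 log2 CPM at 0 reads, with a gap of 0.846. No response passed a test of the difference between genotypes.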

How the results depend on the processing

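Every response call on Bdnf, Fgf1, Fgf2 and Vegfa in Nlrx1-/- cells, and on Bdnf and Fgf1 in WT cells, held in all alternatives run. Calls on Pdgfa, Hbegf, Igf1, Vegfa in WT cells and the genotype difference of Bdnf were lost in some, as given with each gene. Fits without the replicate block of the litters left 12 called binding proteins and processing enzymes in WT, 4 and 10 called feedback genes in WT and Nlrx1-/- cells, and 6 called hypoxia genes in Nlrx1-/- cells. The same number in WT and Nlrx1-/- litters is only a number: same-numbered libraries of the 2 genotypes correlated between -0.034 and 0.18 in vehicle and between -0.089 and 0.149 after treatment. A replicate block on that number gave 358 genes higher and 233 lower in vehicle and 1370 and 1445 after treatment, against 0, 1, 735 and 736, and changed no call on the growth factors. For the difference between responses DESeq2 called 111 genes higher and 185 lower and edgeR without a count filter 1 lower. For the genotypes in vehicle DESeq2 called 455 higher and 280 lower, edgeR 0 lower, a filter at a mean of 1 CPM 0 lower and a common median 2 lower. For the genotypes after treatment edgeR called 396 and 363, without a count filter 293 and 259, and DESeq2 1229 and 1209. The cause was not tested.

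With 1 litter left out, the difference between responses had 0 to 378 genes higher and 0 to 444 lower, the genotypes in vehicle 0 to 688 and 0 to 930, and the genotypes after treatment 0 to 1888 and 1 to 1980. The highest counts came without Nlrx1-/- litter 3. For the genotypes after treatment, 0 or 1 gene was higher and 1 or 2 lower without WT litter 2, 3 or 4 or Nlrx1-/- litter 2 or 4. Between 10 and 19 feedback genes were called in WT cells, with the most without Nlrx1-/- litter 3. Signs changed only in values that passed no test. Log2 differences between genotypes after treatment ran from -0.61 to 0.41 for Gdnf, -0.65 to 0.30 for Igf1 and -0.39 to 0.26 for Hbegf, and in vehicle from -0.58 to 0.0005 for Hbegf and -0.34 to 0.028 for Pdgfa. The difference between responses ran from -1.20 to 0.26 for Igf1 and -0.094 to 0.16 for Pdgfa, and for Pdgfa it was -0.0157 by edgeR, -0.0158 without its filter and -0.0012 by DESeq2. By mean TPM over all 16 libraries Pdgfa had rank 3 and Fgf1 rank 4, and by mean log2 CPM Fgf1 had rank 3 and Pdgfa rank 4. Depth limits Gdnf, Igf1 and Ntf3, whose libraries hold few reads.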
